A study of Mus musculus with 12 samples.

Results

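The expression of 10 genes of the hypoxia response and of vessel growth was followed in mouse cumulus cells: Hif1a, Epas1, Egln3, Bnip3, Vegfa, Vegfc, Fgf2, Angpt2, Flt1 and Kdr. They were looked up by symbol in the array's annotation, and all 10 were found among the 19938 genes that the annotation names by a single symbol. Each gene was read from its probe set with the highest mean over the 12 arrays; Bnip3 had 2 probe sets and the other members 1 each. Cumulus cells are granulosa-derived cells that surround the oocyte in the follicle. They were taken from cumulus-oocyte complexes of 129SV females aged 21 to 26 days, primed 44 h earlier with 5 IU of equine chorionic gonadotropin (eCG).

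Complexes were cultured whole, with their oocyte, for 8 h, 20 to a drop of 50 µL, in α-Minimal Essential Medium with polyvinyl alcohol, glucose at 11 mM, cysteamine and antibiotics. The FSH/EGF group had follicle stimulating hormone (FSH) at 50 mIU/ml and epidermal growth factor (EGF) at 10 ng/ml together with control medium of 293H cells. The GDF9 group had growth differentiation factor 9 at 20 ng/ml, a factor that oocytes themselves secrete. The control group had the 293H control medium at 0.125% by volume. All complexes had been collected with the phosphodiesterase inhibitor cilostamide at 1 µM, which is not named for the culture. The labels name no 293H medium for the GDF9 group, so GDF9 and the lack of that medium cannot be told apart, and no oxygen level of the culture is given in the sources used here. Oocytes were removed by pipetting before RNA was extracted. Each group held 4 arrays, and each array held RNA of 2 biological replicates pooled from 8 per condition, so the p-values measure the spread between pools.

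Cells sense oxygen through hypoxia-inducible factors (HIF), pairs of an alpha subunit, encoded by Hif1a or Epas1, and the stable partner Arnt. When oxygen is plentiful, prolyl hydroxylases such as the products of Egln1, Egln2 and Egln3 mark the alpha subunit, the Vhl protein binds it and it is degraded; when oxygen is scarce it persists and switches on genes of glucose use, mitophagy and vessel growth. This control acts on the protein, and the arrays measure only messenger RNA. In the ovary the granulosa and cumulus compartment has no blood vessels until ovulation, and it secretes vascular endothelial growth factor (VEGF), which acts on receptors of endothelial cells in the surrounding theca.

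Values are log2 levels normalized by the authors, and a difference of 1 is a 2-fold difference. Over the 12 arrays the medians lay between 5.41 and 5.53, and the correlations between arrays of a group lay between 0.971 and 0.995. No detection call was used, so the size of a difference is approximate where a level is low. Of 11 listed markers of cumulus and granulosa cells 10 were measured, and their median level lay between 7.52 and 7.78 on the FSH/EGF arrays, between 8.79 and 9.09 on the GDF9 arrays and between 8.91 and 9.03 on the control arrays. Among them, Fshr, the FSH receptor, stood at 5.18 to 5.37 in FSH/EGF, 8.26 to 8.59 in GDF9 and 8.24 to 8.49 in control. Control array 4 held more oocyte RNA than the others. The oocyte gene Padi6 was at 7.05 there and at 4.46 to 4.51 on the other control arrays, and at 5.61 on FSH/EGF array 3 against 4.49 to 4.58 on the other FSH/EGF arrays. The mean of 15 oocyte markers was 5.93 on control array 4 and 4.89 to 5.02 on the other controls. Control array 1 had the lowest array weight, 0.269. Results are therefore also given without control arrays 1 and 4 wherever this ended a call. In bulk RNA, fewer cells of a type and less RNA per cell cannot be told apart.

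FSH/EGF minus control asked which of these transcripts differ after culture with FSH and EGF, which are used to mature complexes in vitro. Hif1a, Fgf2, Egln3 and Vegfa rose, Epas1, Bnip3, Angpt2 and Vegfc fell, and the receptors Flt1 and Kdr did not pass the test. The 8 called members stand beside 29.0% of all 35399 probe set rows called (16.5% higher and 12.5% lower), and in the same 8 the arrays of both groups did not overlap, against 33.2% of all rows. All rows include those without a gene name. With only the 21789 rows of 1 gene symbol tested, 8890 were called (5059 higher and 3831 lower), a larger share. Of the members, 3 were called with at least a 2-fold difference, against 5.14% of rows. The median difference over the 10 members was -0.05, against -0.06 over all rows. Calls rest on limma with Benjamini-Hochberg adjustment over all rows and a threshold of 0.05 on the adjusted p. Without control arrays 1 and 4, 5 members were called, as the calls of Epas1, Angpt2 and Vegfc were lost.

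**Figure D1:**
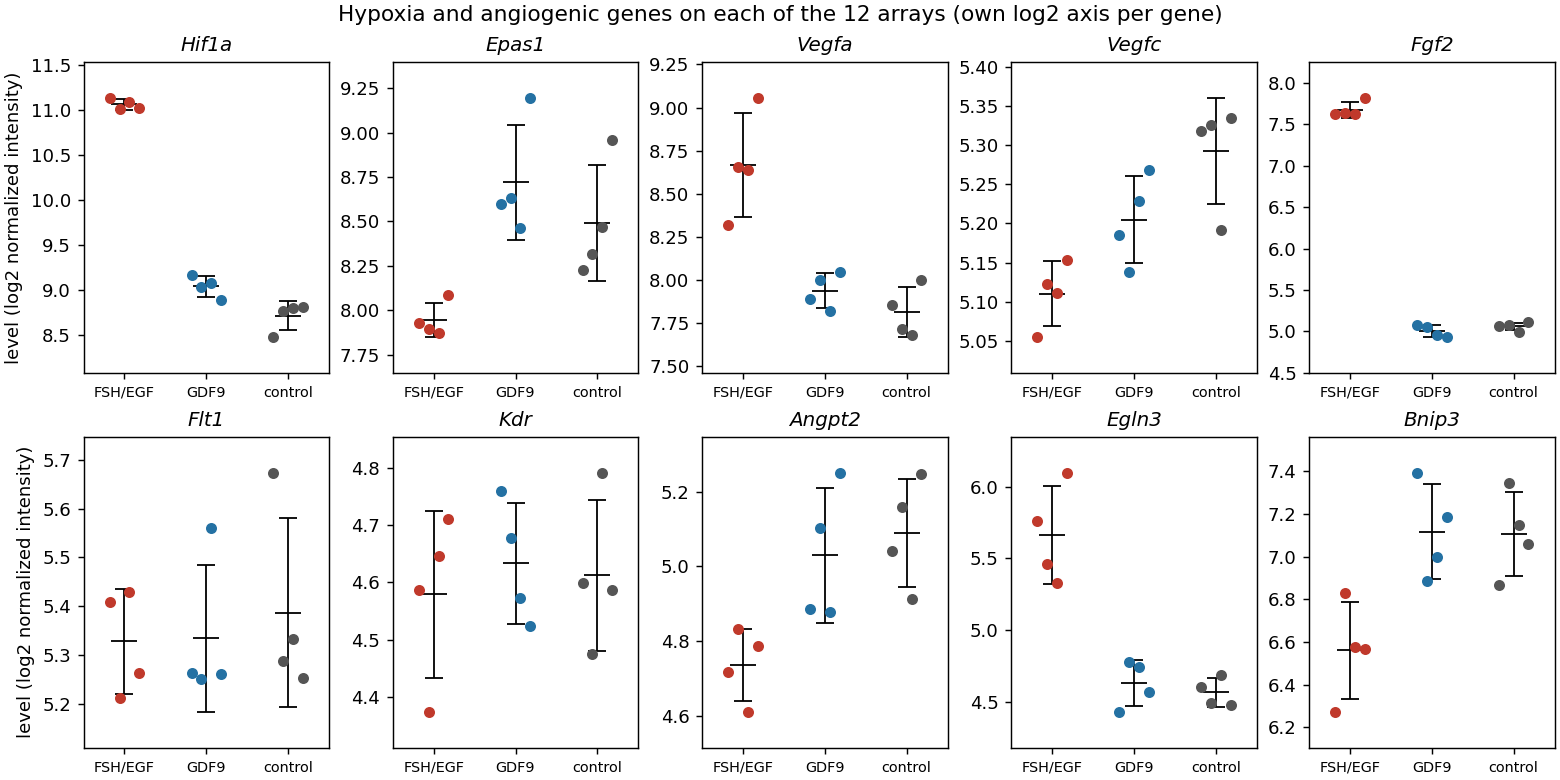
Log2 level of each of the 10 genes on each array, with FSH/EGF to the left, then GDF9, then control; points are arrays, with the group mean and 1 SD to either side as bars. For Hif1a and Fgf2 the 4 FSH/EGF arrays lie more than 2 log2 units above all control arrays, while for Flt1 and Kdr the groups overlap. Each panel has its own vertical range, so levels are not compared between genes.

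The 2 alpha subunits went opposite ways. Hif1a stood at 11.13, 11.01, 11.08 and 11.02 on the FSH/EGF arrays, at 9.17, 9.03, 9.09 and 8.89 on the GDF9 arrays, and at 8.48, 8.77, 8.81 and 8.82 on the control arrays. All FSH/EGF arrays were far above the other 8, and the lowest of them lay 2.19 above the highest control. Hif1a rose by 2.34 ± 0.09 in FSH/EGF against control (log2, SE, n = 4 each; 5.07-fold; limma adjusted p = 1.55e-09). Its spread between FSH/EGF arrays was small, with a mean of 11.06 ± 0.06 in FSH/EGF and 8.72 ± 0.16 in control (SD, n = 4 each).

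Epas1, which encodes HIF-2 alpha, stood at 7.93, 7.89, 7.87 and 8.09 in FSH/EGF, at 8.60, 8.63, 8.46 and 9.19 in GDF9, and at 8.22, 8.32, 8.47 and 8.96 in control. The FSH/EGF arrays were the lowest 4 of the 12, and array 4 was the highest of each group. Epas1 fell by 0.55 ± 0.17 (limma adjusted p = 0.0315; 1.46-fold lower in FSH/EGF, n = 4 each). This call was lost without any of 5 single arrays: control array 3 (-0.55, adjusted p = 0.0599), control array 4 (-0.39, 0.0722), FSH/EGF array 1 (-0.54, 0.0686), FSH/EGF array 2 (-0.53, 0.0688) or FSH/EGF array 3 (-0.52, 0.0753). It was also lost without control arrays 1 and 4 (-0.45, adjusted p = 0.0867) and with equal array medians (-0.47, 0.0836). The FSH/EGF minus GDF9 difference was -0.78 ± 0.17 (limma adjusted p = 0.00517) and was called in every alternative run, at -0.94 to -0.62.

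Of the genes that act on HIF, Egln3, whose prolyl hydroxylase is itself induced by HIF, rose. It stood at 5.76, 5.46, 5.33 and 6.10 in FSH/EGF, at 4.43, 4.78, 4.74 and 4.57 in GDF9, and at 4.61, 4.49, 4.69 and 4.48 in control. The FSH/EGF arrays spread widely but all lay above the other 8. The difference from control was 1.10 ± 0.15 (2.14-fold; limma adjusted p = 0.000101, n = 4 each). The related Egln1 and Egln2 stood 0.37 ± 0.16 (adjusted p = 0.0989) and 0.23 ± 0.10 (adjusted p = 0.0959) above control and missed the threshold. Without control array 4 the Egln1 difference was 0.50 (adjusted p = 0.0205), and that of Egln2 passed with array weights (0.26, adjusted p = 0.0317) and with equal array medians (0.31, 0.0487).

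Bnip3, a mitochondrial protein of the BH3 family that takes part in mitophagy and a textbook HIF target, fell. Its arrays stood at 6.27, 6.83, 6.58 and 6.57 in FSH/EGF, at 7.39, 6.89, 7.0 and 7.19 in GDF9, and at 6.87, 7.34, 7.15 and 7.06 in control. The groups did not overlap, but the highest FSH/EGF array lay only 0.04 below the lowest control array. Bnip3 fell by 0.54 ± 0.14 (limma adjusted p = 0.0117; 1.46-fold lower in FSH/EGF, n = 4 each), and it kept its call in every alternative run, at -0.68 to -0.45. Its second probe set gave -0.50 ± 0.13 (limma adjusted p = 0.0141). Bnip3l, the paralog with the same mitophagy role, rose by 0.44 ± 0.10 (limma adjusted p = 0.00527) and was named after its value was seen.

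Promoter sequence is shown for 4 members that passed the test, the factor gene Hif1a, the HIF targets Egln3 and Bnip3 and the secreted Fgf2, because Egln3 and Bnip3 moved in opposite directions while both hold a hypoxia response element core. The 250 bases before each RefSeq start (GRCm38.p6) were searched on both strands for the cores ACGTG and GCGTG, and each stretch is written on the strand of its gene, with capitals marking a core on either strand. In CACGTG the core is read on both strands, so that its 2 matches overlap.
Hif1a, chr12:73907712-73907821, + strand: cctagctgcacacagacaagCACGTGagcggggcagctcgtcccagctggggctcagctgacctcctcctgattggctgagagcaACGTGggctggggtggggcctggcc
Egln3, chr12:54204079-54204123, - strand: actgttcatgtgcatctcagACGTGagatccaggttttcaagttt
Bnip3, chr7:138909517-138909643, - strand: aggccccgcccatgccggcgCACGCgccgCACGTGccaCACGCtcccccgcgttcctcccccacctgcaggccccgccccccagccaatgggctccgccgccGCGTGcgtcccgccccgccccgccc
Fgf2, chr3:37348561-37348605, + strand: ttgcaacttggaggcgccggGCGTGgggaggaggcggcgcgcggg
The Hif1a stretch held 3 matches, Bnip3 5, Egln3 1 and Fgf2 1. RefSeq windows were matched for 8 of the 10 members, with 9 start sites in all, since Vegfa had 2. Either core was found in 7 of the 9 windows, ACGTG in 4 and GCGTG in 5. Among 32841 promoter windows of the same length, 38.6% held either core, 16.6% ACGTG and 28.2% GCGTG. Flt1 and Kdr, which did not pass the test, also held GCGTG, as did 1 of the 2 Vegfa windows, which held ACGTG too, and the Vegfc window held neither. That Vegfa window (chr17:46025164-46025413, - strand) lies inside the span of the gene (46016993-46032377). The other Vegfa window, directly before the gene span, held none of the motifs searched. The windows of Hif1a, Flt1 and Kdr also lie inside the spans of their genes, with the Hif1a span at 73901324-73947554. The Fgf2 window crosses the start of its gene's span (37348477), and the Fgf2 stretch printed above lies inside that span. The core of the cAMP response element, TGACG, was in 4 of the 9 windows (17.8% of all windows), where the Vegfa match overlaps an ACGTG match, and the AP-1 motif TGANTCA was in 0 of the 9 (6.75% of all windows). A match is a description of the sequence and not of binding.

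Other genes of HIF control were read from a list of 18, all measured, of which 8 rose and 1 fell, with a median difference of 0.29. Here and for every list below, the counts stand beside 16.5% of all rows that rose and 12.5% that fell. Every list gene comes from a row with 1 gene symbol. Those 21789 rows, tested alone, held larger shares in both directions (5059 higher and 3831 lower), so the shares of all rows make the lists look richer in calls. The median over all rows was -0.06, and no set test was run. Cited2, which competes with HIF alpha for the coactivators encoded by Crebbp and Ep300, rose by 1.53 ± 0.15 (limma adjusted p = 6.57e-06). Cul2 and Vhl, parts of the ligase that degrades HIF alpha, rose by 0.92 ± 0.12 (adjusted p = 0.000100) and 0.34 ± 0.11 (adjusted p = 0.0369), and Hif1an, the asparaginyl hydroxylase that blocks HIF activity, by 0.55 ± 0.11 (adjusted p = 0.00237). The Vhl call was lost without control array 2 (0.25, adjusted p = 0.1003), control array 3 (0.35, 0.0625), control array 4 (0.34, 0.0600), FSH/EGF array 1 (0.27, 0.113), FSH/EGF array 2 (0.32, 0.0844) or FSH/EGF array 4 (0.36, 0.0522). It was also lost after renewed quantile normalization (0.17, adjusted p = 0.314) and with only these 2 groups in the fit (adjusted p = 0.0601). Arnt2, an alternative partner of HIF alpha, fell by 1.13 ± 0.08 (adjusted p = 2.66e-07). Arnt itself stood 0.23 ± 0.09 higher in FSH/EGF than in control (adjusted p = 0.0694), and the difference passed without control array 4 (0.29, adjusted p = 0.0308), with array weights (0.19, 0.0446) and with equal array medians (0.31, 0.0438). The remaining genes of the list that rose were Rbx1 (0.60 ± 0.11, limma adjusted p = 0.00160), Ep300 (0.59 ± 0.09, 0.000282), Siah2 (0.53 ± 0.14, 0.0146) and Nfe2l2 (0.39 ± 0.12, 0.0350). Crebbp stood at 0.01 ± 0.07 (limma adjusted p = 0.936). Rbx1, Ep300, Siah2, Nfe2l2 and Crebbp were not followed singly in the alternative runs. They, Vhl, Hif1an, Arnt, Egln1 and Egln2 were named after their values were seen.

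Of a list of 30 textbook HIF targets 28 were measured, and 18 rose and 1 fell in FSH/EGF against control, with a median difference of 0.79. Of all rows, 16.5% rose and 12.5% fell. The 9 targets not called were Hk1 (-0.18), Car9 (-0.17), Slc2a3 (-0.12), Ankrd37 (-0.11), Adm (-0.10), Mxi1 (0.07), Plod2 (0.09), Pfkfb3 (0.10) and Pgk1 (0.24), named after their values were seen. Bhlhe40, a transcriptional repressor, stood at 8.47, 8.63, 8.92 and 8.94 in FSH/EGF and at 4.96, 5.28, 4.98 and 5.32 in control, a difference of 3.61 ± 0.14 (limma adjusted p = 1.90e-09, n = 4 each). Slc2a1, the glucose transporter GLUT1, stood at 10.53, 10.61, 10.74 and 11.17 in FSH/EGF and at 7.66, 7.72, 7.23 and 7.92 in control, and rose by 3.13 ± 0.20 (adjusted p = 1.41e-07). Ddit4, an inhibitor of mTOR signalling, rose by 2.73 ± 0.14 (adjusted p = 1.67e-08). In all 3 genes every FSH/EGF array lay above every control array. The 1 target that fell was Pdk1, a kinase that holds pyruvate back from the mitochondria, at 5.62, 5.73, 5.78 and 5.66 in FSH/EGF and 6.23, 6.56, 6.42 and 6.65 in control (-0.77 ± 0.13, limma adjusted p = 0.000633). Ldha, which turns pyruvate into lactate, rose by 0.93 ± 0.10 (adjusted p = 1.18e-05). Pdk1 and Ldha were named after their values were seen. Among 10 measured mitophagy and autophagy genes 4 rose and 1 fell, beside 16.5% and 12.5% of all rows. Bcl2l1, a survival protein that binds BNIP3, rose by 0.90 ± 0.09 (adjusted p = 1.18e-05), and the autophagy receptor Sqstm1 by 0.77 ± 0.08 (adjusted p = 7.93e-06). Map1lc3b, a protein of the autophagosome membrane, rose by 0.51 ± 0.12 and Becn1, which starts autophagosomes, by 0.36 ± 0.10; both were named after their values were seen. After renewed quantile normalization both calls were lost, at 0.28 for Map1lc3b (adjusted p = 0.137) and 0.15 for Becn1 (adjusted p = 0.207). Pink1, the kinase that marks damaged mitochondria, fell by 1.01 ± 0.11 (adjusted p = 1.88e-05).

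**Figure D2:**
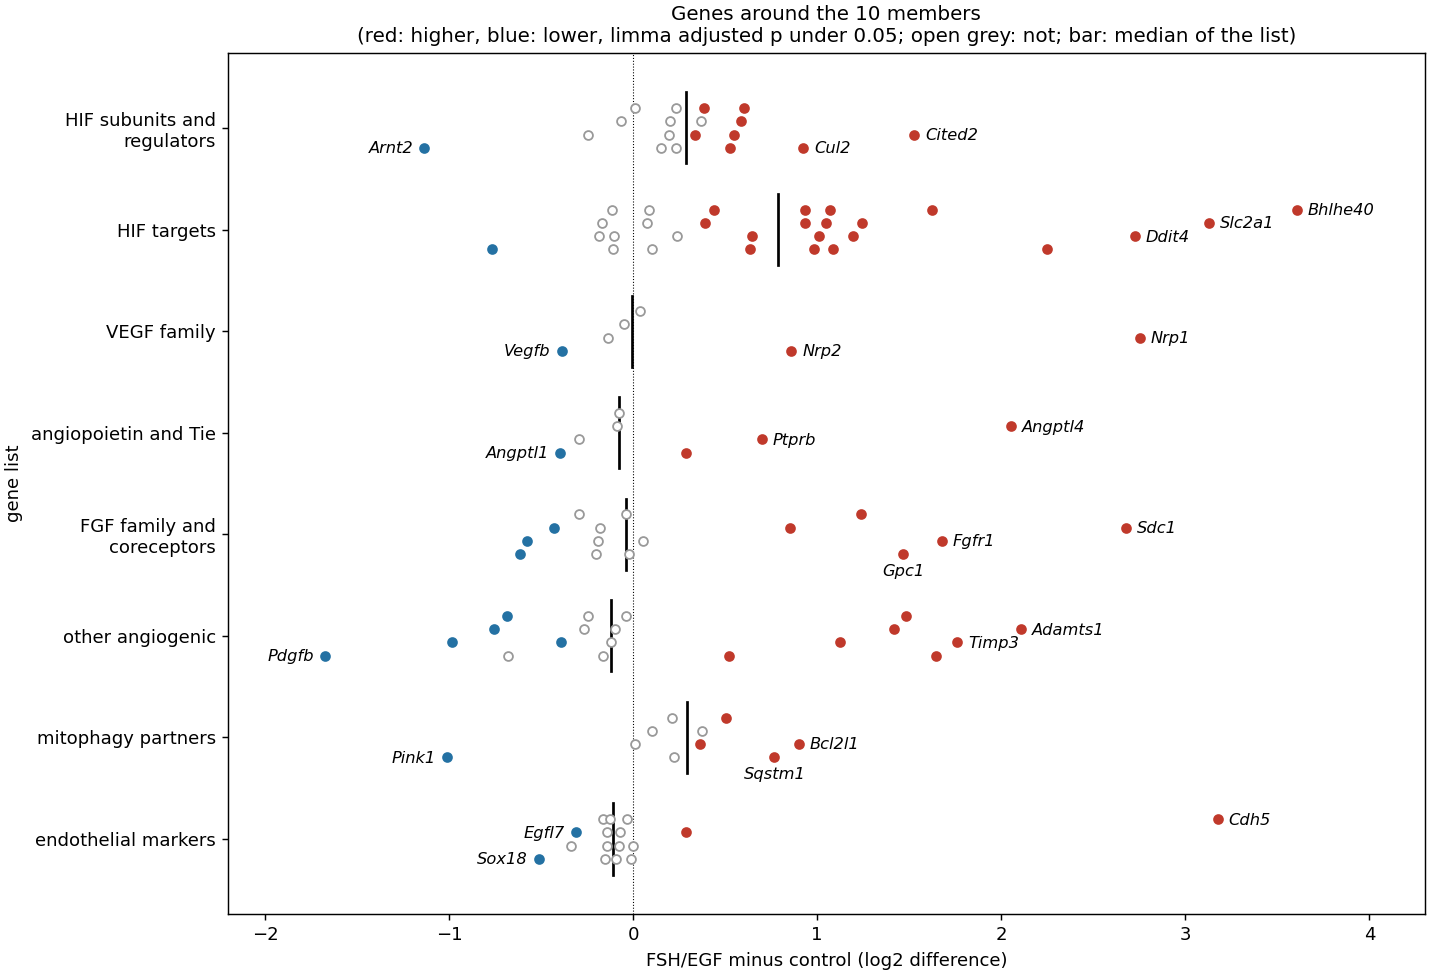
FSH/EGF minus control log2 difference of every measured gene in the 7 pathway lists and in the endothelial marker list; each point is a gene, red where it rose, blue where it fell and open where limma did not call it, the black bars are list medians and the dotted line stands at 0. Of the 28 HIF targets 18 are red and 1 is blue, and the bar stands at 0.79; Cdh5 lies at 3.18, apart from the other endothelial markers.

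The secreted growth factors differed among themselves. Fgf2, a heparin-binding fibroblast growth factor, stood at 7.62, 7.63, 7.62 and 7.81 in FSH/EGF, at 5.08, 5.05, 4.96 and 4.93 in GDF9, and at 5.07, 5.07, 5.00 and 5.11 in control. The FSH/EGF arrays stood apart from the other 8, the lowest of them 2.51 above the highest control. Fgf2 rose by 2.61 ± 0.07 (6.10-fold; limma adjusted p = 8.00e-11, n = 4 each), the largest difference of the 10 members in FSH/EGF against control. Vegfa, the main VEGF ligand of vessel growth, stood at 8.32, 8.65, 8.64 and 9.06 in FSH/EGF, at 7.89, 8.00, 7.82 and 8.05 in GDF9, and at 7.85, 7.71, 7.68 and 8.00 in control. Its FSH/EGF arrays spread over more than those of the other groups, and none overlapped with them. Vegfa rose by 0.85 ± 0.13 (1.81-fold; limma adjusted p = 0.000354, n = 4 each). A single probe set stood for Vegfa, so its splice forms were not told apart.

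Vegfc, a ligand of lymphatic and vascular VEGF receptors, stood at 5.05, 5.12, 5.11 and 5.15 in FSH/EGF, at 5.19, 5.14, 5.23 and 5.27 in GDF9, and at 5.32, 5.33, 5.19 and 5.33 in control. The FSH/EGF and control arrays did not overlap, with a gap of 0.04. Vegfc fell by 0.18 ± 0.06 (limma adjusted p = 0.0428; 1.13-fold lower in FSH/EGF, n = 4 each), a call lost in 14 of 19 alternatives. Leaving out control array 3 kept it, and leaving out any other of the 8 arrays lost it: control array 1 (-0.17, adjusted p = 0.0733), control array 2 (-0.17, 0.0949), control array 4 (-0.17, 0.0864), FSH/EGF array 1 (-0.16, 0.116), FSH/EGF array 2 (-0.19, 0.0753), FSH/EGF array 3 (-0.18, 0.0885) or FSH/EGF array 4 (-0.20, 0.0590). With the arrays set to equal medians the difference was -0.10 (0.304), after renewed quantile normalization -0.09 (0.374), with the replicate number as a block the adjusted p was 0.0699, and without control arrays 1 and 4 the difference was -0.15 (0.195).

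Angpt2, a ligand of the endothelial receptor Tek that loosens vessel walls in many settings, stood at 4.72, 4.83, 4.61 and 4.79 in FSH/EGF, at 4.89, 5.10, 4.88 and 5.25 in GDF9, and at 5.04, 5.16, 4.91 and 5.25 in control. The FSH/EGF arrays were the lowest 4 of the 12. Angpt2 fell by 0.35 ± 0.10 against control (limma adjusted p = 0.0206; 1.28-fold lower in FSH/EGF, n = 4 each). The call was lost without control array 2 (-0.33, adjusted p = 0.0533), control array 4 (-0.30, 0.0548), FSH/EGF array 1 (-0.35, 0.0505) or FSH/EGF array 3 (-0.31, 0.0649), and without control arrays 1 and 4 (-0.30, 0.109). It was also lost after renewed quantile normalization (-0.27, 0.0896) and with equal array medians (-0.28, 0.0805). The levels of Vegfc, Angpt2, Flt1 and Kdr were low on all 12 arrays, between 4.37 and 5.67.

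The 2 VEGF receptors showed no difference past the threshold. Flt1 stood at 5.41, 5.21, 5.43 and 5.26 in FSH/EGF, at 5.26, 5.25, 5.56 and 5.26 in GDF9, and at 5.67, 5.29, 5.33 and 5.25 in control. Kdr stood at 4.59, 4.37, 4.65 and 4.71 in FSH/EGF, at 4.76, 4.68, 4.57 and 4.52 in GDF9, and at 4.60, 4.47, 4.79 and 4.59 in control. For both receptors the groups overlapped. The FSH/EGF minus control difference was -0.06 ± 0.11 for Flt1 (95% interval -0.29 to 0.17; limma adjusted p = 0.706) and -0.03 ± 0.09 for Kdr (-0.24 to 0.17; adjusted p = 0.812), and under several alternatives its sign turned.

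The VEGF coreceptors behaved otherwise. Nrp1, neuropilin 1, which binds VEGF together with Kdr and also binds semaphorins, stood at 7.02, 7.49, 7.24 and 7.38 in FSH/EGF, at 4.39, 4.71, 4.33 and 4.47 in GDF9, and at 4.53, 4.48, 4.57 and 4.54 in control. It rose by 2.75 ± 0.11 in FSH/EGF against control (limma adjusted p = 1.67e-09, n = 4 each), with no overlap between these groups. Nrp2 rose by 0.86 ± 0.12 (adjusted p = 0.000176). Vegfb, a ligand of Flt1, fell by 0.39 ± 0.09 (adjusted p = 0.00431). Of the list of 6 other VEGF genes these were the 2 that rose and the 1 that fell; the third VEGF receptor Flt4, named after its value was seen, stood 0.04 ± 0.08 above control (adjusted p = 0.734).

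Among 15 measured genes of the FGF family and its coreceptors, 5 rose and 3 fell, beside 16.5% and 12.5% of all rows. Sdc1, a cell surface proteoglycan whose heparan sulfate chains bind FGF2, stood at 11.86 to 12.05 in FSH/EGF and at 9.42, 9.31, 9.23 and 9.29 in control (2.68 ± 0.10, limma adjusted p = 8.40e-10). Fgfr1, a receptor of FGF2, stood at 8.46, 8.39, 8.49 and 8.85 in FSH/EGF and at 6.80, 6.99, 6.74 and 6.95 in control (1.68 ± 0.12, adjusted p = 4.17e-07). The ligand Fgf2, its receptor Fgfr1 and its coreceptor Sdc1 were all higher in FSH/EGF, with no overlap of arrays. The glypican Gpc1 rose by 1.47 ± 0.14 (adjusted p = 6.95e-06). The remaining calls, named after their values were seen, were Sdc4 (1.24 ± 0.10) and Fgfr2 (0.85 ± 0.12), which rose, and Fgfr4 (-0.61 ± 0.10), Fgf18 (-0.58 ± 0.07) and Fgfrl1 (-0.43 ± 0.09), which fell.

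Of the 7 measured angiopoietin and Tie genes 3 rose and 1 fell, beside 16.5% and 12.5% of all rows. Angptl4, an angiopoietin-like inhibitor of lipoprotein lipase, rose by 2.05 ± 0.17 (limma adjusted p = 1.72e-06), and Ptprb, a phosphatase that restrains Tek, by 0.70 ± 0.16 (adjusted p = 0.00507). Tek, the receptor of Angpt2, rose by 0.29 ± 0.07 (adjusted p = 0.00826) and was named after its value was seen. Angptl1 fell by 0.40 ± 0.09 (adjusted p = 0.00659). Among 19 other measured promoters and inhibitors of vessel growth 7 rose and 5 fell, beside the same shares of all rows. Adamts1, a matrix protease of ovulation that also inhibits vessel growth, rose by 2.11 ± 0.24 (adjusted p = 2.45e-05), and the protease inhibitor Timp3 by 1.76 ± 0.19 (adjusted p = 1.40e-05). Pdgfb, a growth factor that recruits pericytes, fell by 1.67 ± 0.13 (adjusted p = 1.05e-06). Thbs1, an inhibitor of vessel growth, fell by 0.76 ± 0.07, and Edn1 by 0.98 ± 0.21, Edn2 by 0.39 ± 0.10 and Ccn2 by 0.69 ± 0.10; these 4 were named after their values were seen. The remaining genes that rose were Col18a1 (1.65 ± 0.10), Vash2 (1.48 ± 0.09), Ptn (1.42 ± 0.11), Pdgfa (1.12 ± 0.08) and Sema3a (0.52 ± 0.15). They too were named after their values were seen, and they were not followed singly in the alternative runs.

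Marker genes of other cell types were read in the same arrays. Of 16 endothelial markers 2 rose and 2 fell in FSH/EGF against control, with a median difference of -0.11. Of all rows 16.5% rose and 12.5% fell. Cdh5, the cadherin of endothelial junctions, stood at 8.24, 8.31, 8.02 and 8.07 in FSH/EGF, at 4.96, 5.00, 4.81 and 4.73 in GDF9, and at 4.93, 4.95, 5.07 and 4.99 in control (3.18 ± 0.09, limma adjusted p = 9.29e-11). Pecam1, the other defining marker of endothelium, stayed between 4.79 and 5.14 on all 12 arrays (-0.01 ± 0.08 in FSH/EGF against control, adjusted p = 0.935), with a sign that turned under several alternatives. Tek, counted above, was the other gene that rose. Sox18 fell by 0.51 ± 0.14 (adjusted p = 0.0169), a call lost without control arrays 1 and 4 (-0.30, adjusted p = 0.173). Egfl7 fell by 0.31 ± 0.09 (adjusted p = 0.0265), a call lost without control array 1 (-0.25, 0.0656), control array 2 (-0.28, 0.0680), FSH/EGF array 1 (-0.27, 0.0814) or FSH/EGF array 3 (-0.31, 0.0616), without control arrays 1 and 4 (-0.30, 0.0602), and with equal array medians (-0.23, 0.0584). The summed linear level of the 16 markers was 813 to 883 in FSH/EGF, 588 to 697 in GDF9 and 619 to 745 in control, and their median log2 level was 5.02 to 5.11, 4.95 to 5.16 and 4.98 to 5.34 in the same order of groups. The linear sum is weighted to Cdh5, the highest of the 16 markers in FSH/EGF, and no sum was taken without it. The part of endothelial cells in the results was not tested.

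**Figure D3:**
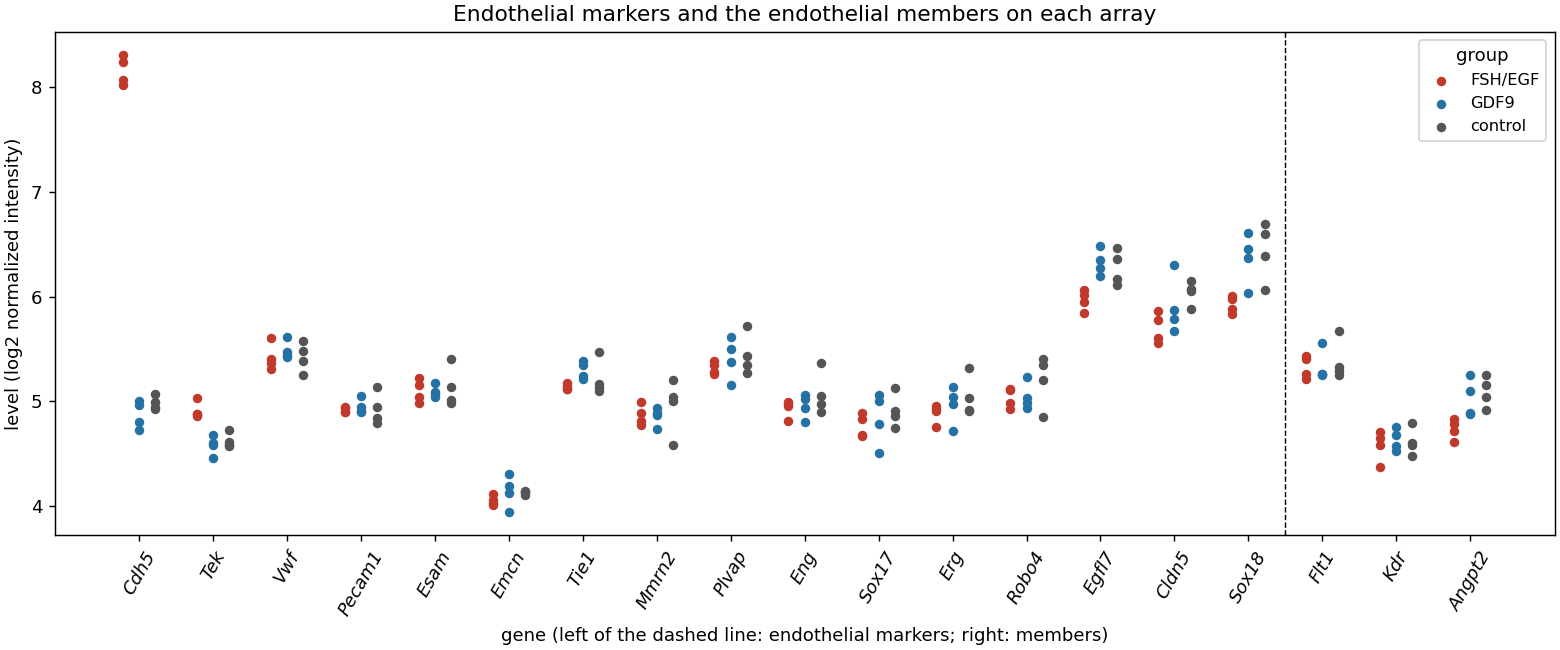
Log2 level of the 16 endothelial markers and, right of the dashed line, of Flt1, Kdr and Angpt2 on each array; points are arrays, coloured by group, with FSH/EGF to the left of GDF9 and control. Cdh5 lies above 8 on the 4 FSH/EGF arrays and near 5 on the other 8, while Pecam1 stays between 4.79 and 5.14 throughout.

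Of the 10 measured cumulus and granulosa markers 7 fell and 1 rose in FSH/EGF against control, with a median of -0.73. Of all rows 12.5% fell and 16.5% rose. Fshr fell by 3.14 ± 0.09 (limma adjusted p = 1.02e-10), Amhr2, the receptor of anti-Müllerian hormone, by 2.16 ± 0.13 (adjusted p = 9.91e-08) and the amino acid transporter Slc38a3 by 2.10 ± 0.13 (adjusted p = 7.53e-08). The gene that rose was Inhba, a subunit of activin (1.02 ± 0.15), named after its value was seen. The summed linear level of these markers was 8045 to 8321 in FSH/EGF, 9494 to 10990 in GDF9 and 9338 to 10228 in control. Of 15 oocyte markers 1 fell, Npm2 (-0.54 ± 0.13, adjusted p = 0.00898), with summed levels of 433 to 562, 426 to 486 and 474 to 1064 in FSH/EGF, GDF9 and control. Of 9 measured markers of theca, stroma and pericytes 2 rose, Cspg4 (1.79 ± 0.17) and Pdgfrb (1.53 ± 0.10), and 3 fell, Acta2 (-2.34 ± 0.21), Col1a1 (-0.31 ± 0.10) and Notch3 (-0.28 ± 0.09). Their summed levels were 759 to 898 in FSH/EGF, 748 to 1139 in GDF9 and 846 to 1042 in control. Col1a1 and Notch3 were named after their values were seen. The Notch3 call (adjusted p = 0.0445) was lost without any 1 of the 8 arrays (adjusted p 0.0608 to 0.102), and that of Col1a1 (0.0439) without control array 1 or 3 or any FSH/EGF array (0.0761 to 0.0927). Over all 19 alternatives the calls were lost in 13 for Notch3 and 11 for Col1a1, among them without control arrays 1 and 4 (-0.24, adjusted p = 0.184 for Notch3 and -0.25, 0.0782 for Col1a1). Of 9 leukocyte markers 1 rose, Cd68 (0.50 ± 0.09, adjusted p = 0.00146), with summed levels of 272 to 289, 246 to 288 and 270 to 307 in the same groups. Of 2 measured red cell markers both fell, Slc4a1 (-0.31 ± 0.09, adjusted p = 0.0196) and Alas2 (-0.30 ± 0.10, adjusted p = 0.0418), with summed levels of 75.0 to 76.4, 84.4 to 107 and 84.9 to 102. The Slc4a1 call did not survive leaving out control array 3 (-0.25, adjusted p = 0.0614) and, separately, FSH/EGF array 1 (-0.30, 0.0533). That of Alas2 was lost without control array 1 or 2, or any FSH/EGF array (adjusted p 0.0650 to 0.0982), and without control arrays 1 and 4 (-0.24, adjusted p = 0.136), in all under 10 of 19 alternatives. The part of these cell types in the results was not tested.

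GDF9 minus control asked which transcripts a factor of the oocyte shifts when added on its own. None of the 10 members passed the test (limma adjusted p from 0.971 to 0.998), and neither did any of the 35399 rows, of which 0% were called, since no adjusted p was below 0.847. Before adjustment, p lay under 0.05 in 1590 rows (4.49%) and in 1 of the members, Hif1a. Its GDF9 arrays, at 8.89 to 9.17, did not overlap with the control arrays at 8.48 to 8.82, as was so for 1.98% of all rows, and the gap was 0.07. The Hif1a difference was 0.32 ± 0.09 (95% interval 0.13 to 0.52; limma adjusted p = 0.971, n = 4 each), and 0.25 without control array 1. For the other 9 members the groups overlapped and the difference lay between -0.09 for Vegfc and 0.23 for Epas1. The median over members was 0.02, against -0.01 over all rows. In the 7 pathway lists 0 of 103 measured genes were called.

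**Figure D4:**
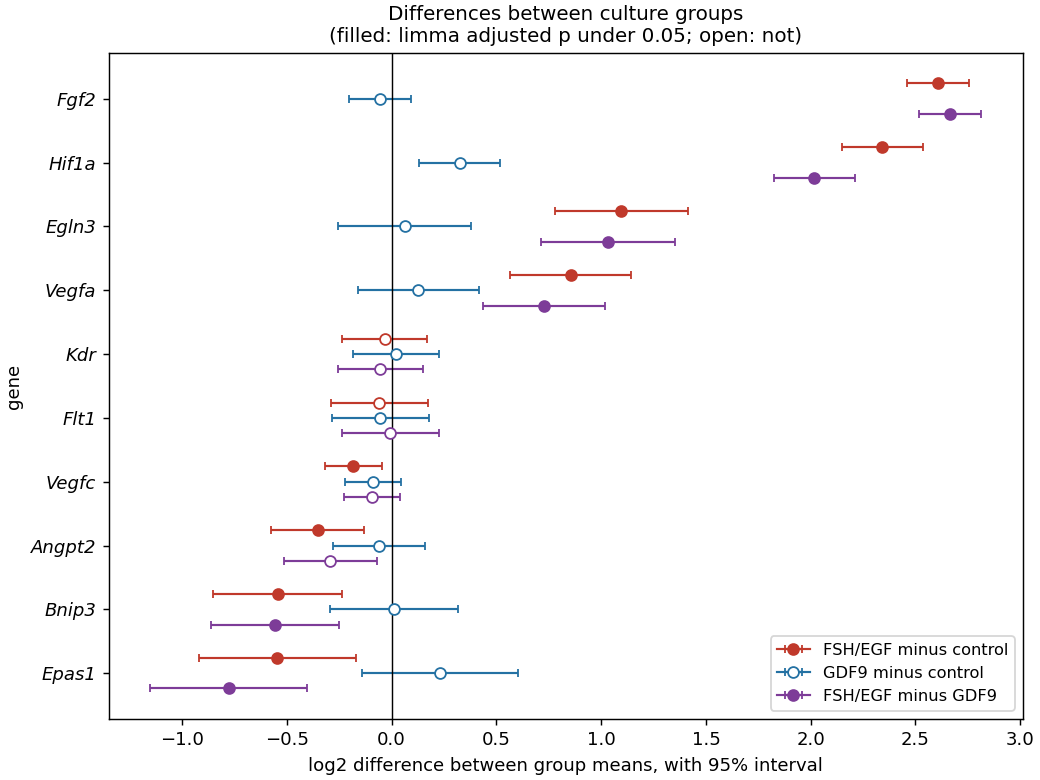
Log2 differences of the 10 genes with their 95% intervals for FSH/EGF minus control, GDF9 minus control and FSH/EGF minus GDF9; points are limma estimates over 4 arrays a group, filled where called. Hif1a, Fgf2, Egln3 and Vegfa lie to the right of 0 in both comparisons that involve FSH/EGF, and all GDF9 minus control points lie between -0.09 and 0.32.

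FSH/EGF minus GDF9 asked whether the treatments left the members at different levels, and it shares the FSH/EGF arrays with the first comparison. Of the members 4 were higher and 2 lower in FSH/EGF, beside 22.5% of all rows called, and 7 did not overlap, against 26.8% of rows. Hif1a was 2.02 ± 0.09 higher in FSH/EGF than in GDF9 (limma adjusted p = 5.42e-09), Fgf2 2.66 ± 0.07 (6.90e-11), Egln3 1.03 ± 0.15 (0.000186) and Vegfa 0.73 ± 0.13 (0.00136). Epas1, given above, and Bnip3 were lower in FSH/EGF, with a difference of -0.56 ± 0.14 for Bnip3 (limma adjusted p = 0.0120). The Angpt2 difference was -0.29 ± 0.10 and did not pass (limma adjusted p = 0.0582), though its arrays did not overlap. It passed without GDF9 array 1 (-0.34, adjusted p = 0.0398) or GDF9 array 3 (-0.34, 0.0468), with array weights (-0.31, 0.0346), over rows with 1 symbol (0.0365) and with the replicate number as a block (0.0141). Vegfc, Flt1 and Kdr stood at -0.09 (95% interval -0.23 to 0.04), -0.01 (-0.24 to 0.23) and -0.05 (-0.26 to 0.15), with adjusted p of 0.330, 0.980 and 0.755.

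The order of the 3 group means differed between members. Hif1a had its highest mean in FSH/EGF (11.06 ± 0.06), then GDF9 (9.04 ± 0.12), then control (8.72 ± 0.16; SD, n = 4 each), where the last 2 differed without passing the test. Vegfa, Egln3 and Fgf2 were highest in FSH/EGF, with GDF9 and control neighbours that did not differ beyond their spread. Vegfa averaged 8.67 ± 0.30 in FSH/EGF, 7.94 ± 0.10 in GDF9 and 7.81 ± 0.15 in control, and Egln3 5.66 ± 0.34, 4.63 ± 0.16 and 4.57 ± 0.10 in those groups. Bnip3 averaged 6.56 ± 0.23 in FSH/EGF, 7.12 ± 0.22 in GDF9 and 7.10 ± 0.20 in control, and Epas1 7.94 ± 0.10, 8.72 ± 0.32 and 8.49 ± 0.33. Both were lowest in FSH/EGF, as was Angpt2, at 4.74 ± 0.10 in FSH/EGF, 5.03 ± 0.18 in GDF9 and 5.09 ± 0.15 in control, and for these 3 the GDF9 and control means lay within their spread. Fgf2 averaged 7.67 ± 0.10 in FSH/EGF, 5.01 ± 0.07 in GDF9 and 5.06 ± 0.05 in control. For Vegfc, Flt1 and Kdr the 3 means lay within 0.18 of each other. Across arrays within groups, Epas1, Vegfa and Vegfc were highest on the array numbered 4 of every group, and 6 of the 10 members were highest on FSH/EGF array 4, 4 on GDF9 array 4 and 6 on control array 4. The labels do not say whether a number pairs arrays across groups.

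Genes whose pattern over the 12 arrays was most like that of a member are given as a description. All arrays enter each correlation, so it holds both the differences between groups and the spread within them. The genes were picked for the highest r over these same arrays. That choice also raises the r left after group means were removed, which is no separate evidence. For Hif1a the closest were Stk17b (Pearson r = 0.997 over 12 arrays, and 0.74 after group means were removed) and Lrrc59 (0.996 and 0.77). For Fgf2 they were Flnc (0.999 and 0.81) and Niban2 (0.999 and 0.68), and for Vegfa Rcor2 (0.977 and 0.91) and Dusp10 (0.976 and 0.90). For Epas1, whose fall in FSH/EGF against control was close to that of Bnip3, they were Gtpbp1 (0.943 and 0.85) and Snora75 (0.931 and 0.86).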

How the data were processed

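Cumulus cell RNA was measured on 12 arrays, 4 per group, and samples were grouped by the agent in their labels. The deposited values are log2 levels that the authors had normalized; the submitters' processing notes list RMA, Partek and GCOS, with neither version nor role. Genome build and annotation version: not given in the sources used here. Already normalized values cannot show a change shared by all genes. Of 35399 rows, 21789 had 1 gene symbol, 1621 several and 11989 were not listed; by Entrez identifier 21698 of the single symbols matched the RefSeq gene table, with 0 renamed. Rows without a name were tested too. Arrays give no depth, and their number limits the precision.

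limma (3.58.1, R 4.3.3) fitted 1 mean per group over all 12 arrays, with Benjamini-Hochberg adjustment over all 35399 rows. The fit was tested on simulated data. Members and lists were chosen with earlier results of these data known. Named beside the members were up to 3 genes per list with the largest called, non-overlapping FSH/EGF minus control difference, 4 marker genes in any case, and 2 genes of like pattern for 4 members; others are said in the text to be named after their values were seen. Promoter windows of 250 bases were taken from RefSeq. Replicate numbers were not used as pairs: deviations of same-numbered arrays correlated at -0.39 to 0.22. Alternatives were equal array medians, renewed quantile normalization, array weights, a variance trend, robust moderation, leaving out the dimmest 40% of rows, rows with 1 symbol alone, fits of the 2 groups alone, a mean over probe sets, the other Bnip3 probe set, the replicate number as a block, each array left out, and control arrays 1 and 4 left out together.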

Additional observations from a re-analysis of the deposited data

Results flagged for a closer look

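In 210 sets of 4 arrays, of 70 genes in 3 groups, 15 (7.14%) had 1 array apart from the other 3 by Dixon's criterion, which chance alone gives in about 1 in 20 sets. Among the members, Hif1a was low on control array 1 (8.48, others 8.77 to 8.82), Vegfc was low on control array 3 (5.19, others 5.32 to 5.33), Fgf2 was high on FSH/EGF array 4 (7.81, others 7.62 to 7.63) and Flt1 was high on GDF9 array 3 (5.56, others 5.25 to 5.26). Among the HIF regulators, Cited2 was low on control array 3 (10.06, others 10.39 to 10.43) and Egln2 high on FSH/EGF array 2 (8.48, others 8.29 to 8.31). Among the vessel and FGF genes, Angptl1 was low on FSH/EGF array 2 (4.25, others 4.32 to 4.33), Tek high on FSH/EGF array 4 (5.03, others 4.86 to 4.88) and Adamts1 low on GDF9 array 3 (5.68, others 6.17 to 6.27). Fgf18 was high on FSH/EGF array 2 (6.11, others 5.95 on each) and Fgfrl1 low on FSH/EGF array 4 (8.71, others 8.77 to 8.78). Among the markers, Alas2 was high on GDF9 array 2 (5.62, others 5.26 to 5.31) and Notch3 on the same array (6.11, others 5.65 to 5.73). Padi6 was high on FSH/EGF array 3 (5.61, others 4.49 to 4.58) and on control array 4 (7.05, others 4.46 to 4.51). No cause was tested.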

How the results depend on the processing

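For FSH/EGF minus control, 151 of 188 member values kept direction and side of the threshold, 28 lost the call and 9 changed sign. The calls of Hif1a (2.26 to 2.42), Fgf2 (2.52 to 2.69), Vegfa (0.64 to 0.97) and Bnip3 (-0.68 to -0.45) held throughout. That of Egln3 (0.95 to 1.21) held in every run that tested it, but its row was removed with the 40% dimmest rows. For GDF9 minus control 173 of 188 values kept theirs and 15 changed sign, and for FSH/EGF minus GDF9 167 of 178 did, 5 gained a call and 6 changed sign. Members called in FSH/EGF minus control, 8 in the report, numbered 5 to 7 with 1 array left out and 5 without the 40% dimmest rows (which also removed 3 members), with equal array medians and without control arrays 1 and 4. Rows called ran from 8139 to 13101, the upper end with array weights; 57.0% were higher in FSH/EGF, against 71.9% with equal array medians and 52.4% after renewed quantile normalization. GDF9 minus control had 0 to 1 rows called with 1 array left out, 1 without GDF9 array 3.

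Counts of calls per list that moved by over 1.5 times were as follows. Smaller moves also occurred: with 1 array out the HIF regulators had 7 to 9 calls, the HIF targets 18 to 20 and the endothelial markers 3 to 5. The theca, stroma and pericyte list had 3 with a variance trend, equal array medians or without control arrays 1 and 4, and 3 to 5 with 1 array out. The angiopoietin list had 1 without the dimmest rows, the mitophagy list 3 after renewed quantile normalization, and the endothelial list 2 without control arrays 1 and 4. The red cell list had 1 after renewed quantile normalization, with equal medians, the replicate block or without control arrays 1 and 4, and 0 to 2 with 1 array out; the oocyte list had 1 to 2 with 1 array out.

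Signs turned in uncalled differences. In FSH/EGF minus control, array weights gave 0.0242 for Flt1, 0.0393 for Pecam1 and -0.00656 for Flt4; renewed quantile normalization gave 0.0232 for Flt1, 0.0492 for Kdr and 0.0832 for Pecam1; equal medians gave 0.0180, 0.0436 and 0.0669 for these 3. Leaving out control arrays 1 and 4 gave 0.0173 for Flt1, 0.0491 for Pecam1, 0.306 for Padi6 and -0.0320 for Flt4. With 1 array out the ranges were -0.104 to 0.0366 for Flt1, -0.0795 to 0.0350 for Kdr, -0.0561 to 0.0594 for Pecam1, -0.608 to 0.305 for Padi6 and -0.00825 to 0.0789 for Flt4. In GDF9 minus control, array weights gave 0.0587 for Flt1, -0.0217 for Kdr and -0.0822 for Bnip3. Bnip3 was -0.0437 after renewed quantile normalization, -0.0117 as a mean of probe sets, -0.0351 on its other probe set and -0.129 without control arrays 1 and 4, where Flt1 was 0.0232. With 1 array out the ranges were -0.128 to 0.0425 for Flt1, -0.0255 to 0.0801 for Kdr and -0.0807 to 0.0916 for Bnip3. In FSH/EGF minus GDF9, Flt1 was 0.0407 after renewed quantile normalization and 0.0349 with equal medians, and with 1 array out Flt1 ran from -0.0395 to 0.0694 and Kdr from -0.0978 to 0.0145. The causes were not tested.

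With the replicate block, 9600 rows against 10269 were called in FSH/EGF minus control and 7547 against 7979 in FSH/EGF minus GDF9; the calls of Vegfc, Alas2 (0.0537), Notch3 (0.0709) and Col1a1 (0.0822) were lost and that of Angpt2 against GDF9 was gained. Of the 12 arrays, 3 correlated best with an array of their own number. A planned comparison of member proteins was not run. Detection over background was not analysed, which limits what can be said of Vegfc, Angpt2, Flt1 and Kdr. It also limits the size given for the rises of Egln3, Fgf2, Nrp1 and Tek, whose control means were 4.57, 5.06, 4.53 and 4.62.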
